A study of Mus musculus with 12 samples.

Results

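A set of 10 genes of the actomyosin contraction machinery were followed across wild-type (WT), Pkd1-/- and Pkd2-/- kidney epithelial cells: *Mylk*, *Rock1*, *Rock2*, *Myl9*, *Myl12a*, *Myh9*, *Myh10*, *Myh14*, *Acta2* and *Tagln*. They were taken by symbol from a table of 47642 genes, and all 10 of them passed the filter that left 18552 genes for testing. The genes were chosen by name with their measured fold changes between these genotypes known, among them the lower *Mylk* level in both mutants, so the members' own differences are given as a description, with standard errors and without p-values. The cells are mIMCD3, a mouse line from the inner medullary collecting duct, the last stretch of the kidney tubule system. The Pkd1-/- cells carry large deletions on both alleles of *Pkd1* (chr17:24550055-24594963 and chr17:24550106-24594903), and the Pkd2-/- cells a deletion in *Pkd2* (chr5:104478281-104490878), while the WT cells carry neither. *Pkd1* and *Pkd2* encode polycystin-1 and polycystin-2, whose loss causes autosomal dominant polycystic kidney disease. Each mutant is 1 clone, and the 4 RNA samples per genotype came from separate dishes of that line, harvested 4 days past full confluency, so the errors below cover dishes and not clones.

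Contraction in nonmuscle and smooth muscle cells is switched on by phosphorylation of the myosin regulatory light chain. Myosin light chain kinase, the product of *Mylk*, does this when calcium rises in the cell. ROCK1 and ROCK2 do it as well, both by phosphorylating the light chain and by inhibiting the phosphatase that reverses the mark. The light chain sits on heavy chains that pull on actin filaments, and in epithelial cells the resulting tension acts on the belt of actin below the cell junctions and on stress fibers. *Mylk* also encodes a short protein, telokin, from its last exons, and a gene-level count does not separate it from the kinase.

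The phosphorylated site is shown first because it is the point on which the kinases of the list act, and because it shows how alike the light chain genes are. These are 54 bases of coding sequence, all in exon 2 of 4, from GENCODE M21 transcripts on GRCm38, with the neighboring threonine and serine codons in capitals. The windows lie at chr2:156778575-156778628 on the plus strand for *Myl9*, chr17:70996797-70996850 on the minus strand for *Myl12a* and chr17:70977148-70977201 on the minus strand for *Myl12b*, a close relative that is not among the 10 genes.
Myl9: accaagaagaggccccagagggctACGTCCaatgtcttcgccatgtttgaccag
Myl12a: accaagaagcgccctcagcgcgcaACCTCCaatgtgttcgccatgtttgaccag
Myl12b: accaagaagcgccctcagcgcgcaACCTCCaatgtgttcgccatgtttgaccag
The marked codons are codons 19 and 20 of *Myl9* and *Myl12b* and codons 25 and 26 of the *Myl12a* reading frame used here, counted with the start codon as the first. *Myl12a* and *Myl12b* differed at 0 of the 54 bases, and *Myl9* differed from both at 8. Over aligned coding sequence, with gaps counted as differences, *Myl12a* and *Myl12b* were 93.3% identical. Their transcripts had a longest identical stretch of 120 bases, so reads could be split between them in counting. *Myl9* was 82.7% identical to *Myl12a* and 86.3% to *Myl12b*, and shared no more than 35 bases in a row with either. The *Myl12a* frame has 537 bases, against 519 in *Myl9* and *Myl12b*, so gaps lower the values that involve *Myl12a*.

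RefSeq promoter windows, 250 bases before to 50 after the annotated start on GRCm38.p6, were found for 8 of the 10 genes, all but *Rock1* and *Tagln*. The windows of *Mylk*, *Myl9* and *Acta2* are shown, since these were 3 of the 4 genes that were lower by at least 2-fold in a mutant, the other being *Tagln*. They lie at chr16:34784700-34784999 (plus strand), chr2:156775214-156775513 (plus strand) and chr19:34255324-34255623 (minus strand). Capitals mark a CArG box, the element that serum response factor binds, in *Myl9*, and CATTCC or its reverse complement, the core of the element that TEAD factors bind, in *Mylk* and *Acta2*.
Mylk: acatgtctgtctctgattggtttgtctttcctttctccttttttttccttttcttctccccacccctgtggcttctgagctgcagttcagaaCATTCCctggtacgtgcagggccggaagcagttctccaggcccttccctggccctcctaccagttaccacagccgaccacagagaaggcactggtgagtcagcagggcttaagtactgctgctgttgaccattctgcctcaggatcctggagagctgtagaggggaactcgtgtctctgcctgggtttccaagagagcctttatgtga
Myl9: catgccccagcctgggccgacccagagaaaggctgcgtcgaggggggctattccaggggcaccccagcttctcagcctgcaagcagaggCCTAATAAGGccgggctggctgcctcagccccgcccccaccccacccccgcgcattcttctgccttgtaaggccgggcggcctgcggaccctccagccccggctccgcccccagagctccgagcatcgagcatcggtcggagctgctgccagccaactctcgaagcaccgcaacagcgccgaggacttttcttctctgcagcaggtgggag
Acta2: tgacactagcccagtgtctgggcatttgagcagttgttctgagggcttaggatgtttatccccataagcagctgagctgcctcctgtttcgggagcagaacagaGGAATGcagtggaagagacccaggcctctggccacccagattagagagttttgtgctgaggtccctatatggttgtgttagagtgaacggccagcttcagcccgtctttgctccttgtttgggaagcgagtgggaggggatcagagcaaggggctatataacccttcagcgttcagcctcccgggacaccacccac
Both strands were searched for the CArG box, for CATTCC, for GGGCGG (the core that Sp1 binds) and for TATAAA. The CArG box was searched only in its strict form, CCWWWWWWGG with W for A or T. Near matches were not counted or marked, such as ccctatatgg and ccttgtttgg in the *Acta2* window and ccttgtaagg in the *Myl9* window. An unmarked window is therefore not shown to lack the element. Of 32817 mouse promoter windows of the same length, 1.63% held a CArG box, 14.66% CATTCC, 35.63% GGGCGG and 13.62% TATAAA. The *Myl9* window held its CArG box at -161, counted from the start as 0, and 3 copies of GGGCGG, and its GC content of 68.3% was above the 52.67% median of all windows. The *Mylk* window held CATTCC at -158 and none of the other motifs, with 53.3% GC. Its start lies 39740 bases inside the GENCODE gene, whose annotated start is further upstream. The *Acta2* window held CATTCC on the reverse strand at -146, with 54.7% GC. A match of letters is a description of the window and says nothing of binding.

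The values are normalized counts, which are read counts that the authors divided by a size factor for each library and rounded to whole numbers. They summed to between 25966273 and 28027792 per library. *Pkd1* was at 782 ± 112 in WT, 41.8 ± 8.81 in Pkd1-/- and 1209 ± 202 in Pkd2-/- cells (mean ± SD, n = 4 in each). *Pkd2* was at 3971 ± 451, 2711 ± 133 and 3986 ± 124, and since the deletion covers 14.7% of its exon bases, the gene's total does not check the Pkd2-/- label. Of 11 collecting duct epithelium markers, *Aqp2*, the water channel of principal cells, was at 0 in every library, which allows up to 3 counts per library for counting error alone. *Aqp3*, another water channel of the list, was at 0 to 6 in any library, and *Scnn1a* was at 63 to 131. The 11 summed to 67535 to 75566 in WT, 68452 to 70330 in Pkd1-/- and 75202 to 78580 in Pkd2-/- libraries. The sum was carried by *Cdh1*, *Epcam*, *Krt8* and *Krt18* and says little of the other markers. A difference between genotypes is given as the log2 fold change of the normalized count plus 1 with its standard error (SE) from a limma model of all 12 libraries, and a gene is called when its Benjamini-Hochberg adjusted p is under 0.05, over all 18552 genes. In Pkd2-/- cells 6 of the 10 collecting duct markers tested were called higher and 2 lower against WT, beside 20% and 22.3% of all tested genes. Among them were the transcription factor genes *Pax2* (1.56-fold higher), *Pax8* (1.42-fold higher) and *Hoxb7* (69.4% of WT), and *Epcam* (77.0% of WT). In Pkd1-/- cells 1 of the 10 was called, beside 27.1% of all tested genes. This was *Gata3*, at 21.4% of its WT mean, and in Pkd2-/- cells it was at 156.2%. The marker lists were chosen with earlier results of these data known, and the part of these markers in the differences below was not tested. Both mutants are compared with the same 4 WT libraries, so the comparisons with WT are not independent of each other.

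Compared with WT, *Mylk* was the member with the largest difference in Pkd1-/- cells. In Pkd2-/- cells more members were called, as were more of all tested genes. Against WT, 4 of the 10 genes were called in Pkd1-/- cells (1 higher, 3 lower), where 27.1% of all tested genes were called (13.6% higher, 13.5% lower). In Pkd2-/- cells all 10 were called (3 higher, 7 lower), where 42.3% of all tested genes were called (20% higher, 22.3% lower). Between the mutants 8 of 10 were called (3 higher and 5 lower in Pkd2-/- cells), beside 46.3% of all genes (21.9% higher, 24.3% lower). When a log2 fold change of at least 1 was also asked, 1 member was called in Pkd1-/- cells (*Mylk*, lower, beside 6.24% of all genes, 3.28% lower and 2.96% higher) and 4 in Pkd2-/- cells (*Mylk*, *Myl9*, *Acta2* and *Tagln*, all lower, beside 9.62%, 6.38% lower and 3.24% higher). Those 4 genes were also called between the mutants (*Mylk* higher and 3 lower in Pkd2-/- cells, beside 11.8%, 7.23% lower and 4.53% higher). The libraries did not overlap for 3 members in Pkd1-/- cells against WT (all lower, beside 27.1% of all genes, 13.6% lower), for 9 in Pkd2-/- cells (7 lower, beside 37.2%, 19.8% lower) and for 8 between the mutants (5 lower, beside 41.8%, 22% lower). Over the members the median difference from WT was -0.07 (log2) for Pkd1-/- and -0.84 for Pkd2-/- cells, beside 0.01 and -0.01 over all tested genes, and -0.42 between the mutants, beside -0.01. Because the list was drawn up from these comparisons, nothing is read from these counts.

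**Figure D1:**
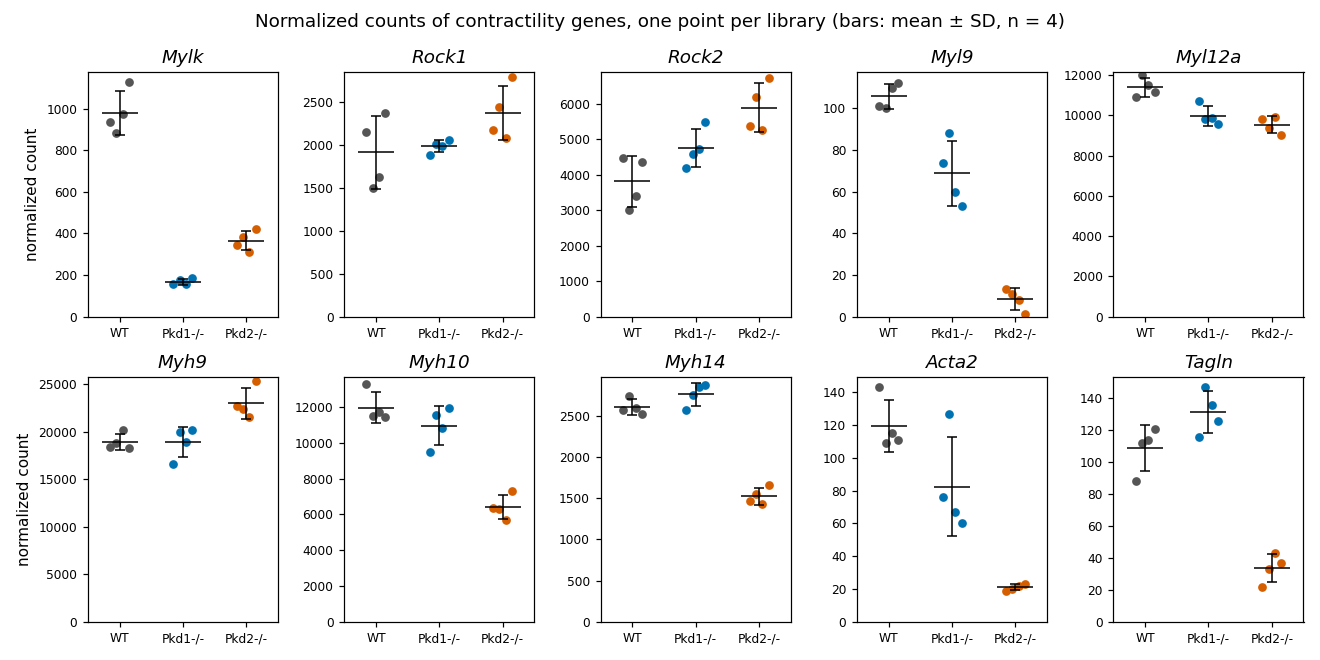
Normalized counts (vertical axes, each from 0) of the 10 genes in the 4 libraries of each genotype (points), with the mean and SD as bars. Mylk lies at 882 to 1129 in WT, 156 to 186 in Pkd1-/- and 312 to 422 in Pkd2-/- libraries, while Myl9, Acta2, Tagln, Myh10 and Myh14 are lowest in all 4 Pkd2-/- libraries.

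Among the kinases, *Mylk* (ENSMUSG00000022836, chr16:34745210-35002420, plus strand) had normalized counts of 935, 882, 977 and 1129 in the WT libraries. The Pkd1-/- libraries held 156, 174, 156 and 186, and the Pkd2-/- libraries 345, 384, 312 and 422. The 3 genotypes did not overlap, with WT highest, Pkd2-/- between and Pkd1-/- lowest. The Pkd1-/- mean was 17.1% of the WT mean (log2 fold change -2.54, SE 0.10) and the Pkd2-/- mean 37.3% (log2 fold change -1.42, SE 0.10). Between the mutants, *Mylk* was 2.18-fold higher in Pkd2-/- cells (log2 fold change 1.11, SE 0.10, and 0.92 after a correction for transcript length described below). It was the only member called lower by at least 2-fold in both mutants, which held for 1.63% of all tested genes. Leaving out any 1 library kept its log2 fold change between -2.59 and -2.47 in Pkd1-/- and between -1.50 and -1.35 in Pkd2-/- cells.

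*Rock2* and *Rock1* went the other way, by less. *Rock2* (ENSMUSG00000020580, chr12:16894895-16987823, plus strand) was at 4459, 3011, 3402 and 4348 in WT, at 4181, 4582, 4724 and 5477 in Pkd1-/- and at 5381, 6186, 5252 and 6707 in Pkd2-/- libraries. The Pkd2-/- libraries all lay above the WT libraries, while the Pkd1-/- libraries overlapped both other groups. Against WT its log2 fold change was 0.33 (SE 0.11) in Pkd1-/- and 0.64 (SE 0.11) in Pkd2-/- cells, both called, and 0.31 (SE 0.11) between the mutants. The Pkd1-/- call was lost without WT replicate 2 or 3 and without Pkd1-/- replicate 2, 3 or 4, with log2 fold changes from 0.22 to 0.34, and with no filter on low values (0.33). The call between the mutants was lost without Pkd1-/- replicate 1, 2 or 3 or Pkd2-/- replicate 2 or 4 (0.24 to 0.31), with libraries scaled to their totals (0.24) and with the length correction (0.12). *Rock2* was the only member called higher in both mutants, as were 4.79% of all tested genes.

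*Rock1* (ENSMUSG00000024290, chr18:10064401-10182045, minus strand) ranged more among the WT libraries than between genotypes, at 2155, 1492, 1624 and 2375. Pkd1-/- libraries were at 1887, 2012, 1992 and 2057 and Pkd2-/- libraries at 2172, 2435, 2082 and 2785, overlapping WT in both cases. Against WT it differed by 0.08 on the log2 scale (SE 0.12) in Pkd1-/- cells, and by 0.33 (SE 0.12) in Pkd2-/- cells, where it was called. That call was lost without WT replicate 2 (0.22) or 3 (0.26) and without Pkd2-/- replicate 2 (0.31) or 4 (0.25), and also with libraries scaled to their totals (0.26), with only the 2 genotypes in the model (0.33) and with the length correction (0.20). Between the mutants the log2 fold change was 0.24 (SE 0.12), not called although the libraries did not overlap, and it was called without WT replicate 4 or with only the 2 genotypes in the model. Per kilobase of annotated exon, both genes together were at 379 ± 73.7 in WT, 451 ± 42.5 in Pkd1-/- and 554 ± 66.8 in Pkd2-/- libraries (mean ± SD, n = 4), and *Rock2* made up 72.2%, 75.5% and 76.4% of that sum.

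**Figure D2:**
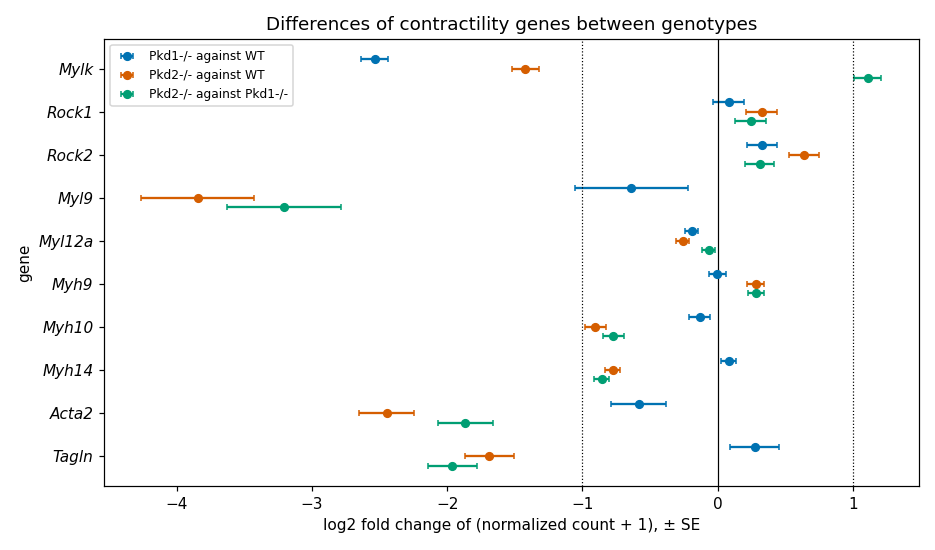
Log2 fold change of each gene (horizontal axis, points) with its SE (bars) in the 3 comparisons, with dotted lines at -1 and 1. Mylk lies at -2.54 and -1.42 in the mutants against WT, and Myl9, Acta2 and Tagln lie beyond -1 only where Pkd2-/- cells are compared, at -3.85, -2.45 and -1.69 against WT.

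The regulatory light chains are the substrate of these kinases. *Myl9* (ENSMUSG00000067818, chr2:156775420-156781658, plus strand), the form best known from smooth muscle, was low everywhere, at 101, 100, 110 and 112 in WT and 74, 88, 60 and 53 in Pkd1-/- libraries. Pkd2-/- libraries held 13, 11, 8 and 1. The groups did not overlap in any comparison. The Pkd1-/- mean was 65.0% of WT (log2 fold change -0.64, SE 0.42, not called) and the Pkd2-/- mean 7.80% (log2 fold change -3.85, SE 0.42). The single count in Pkd2-/- replicate 4 widens that error for all 3 genotypes, because the model shares 1 spread per gene. Without that library the log2 fold change was -3.22 in Pkd2-/- cells, and the Pkd1-/- difference, still -0.64, was called, as it was with only the 2 genotypes in the model.

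*Myl12a* (ENSMUSG00000024048, chr17:70993656-71002878, minus strand), one of the broadly expressed regulatory light chains, had the highest level of the members per kilobase of exon, though *Myh9* had more counts. In normalized counts it was at 10922, 12015, 11513 and 11170 in WT, 10716, 9807, 9847 and 9572 in Pkd1-/- and 9825, 9376, 9920 and 9036 in Pkd2-/- libraries. All mutant libraries lay below all WT libraries, by a little: log2 fold change -0.19 (SE 0.05) and -0.26 (SE 0.05), both called, with -0.07 (SE 0.05) between the mutants, which was called only with libraries scaled to their totals (-0.14). Its near twin *Myl12b* was at 5556 ± 679 in WT, 6153 ± 323 in Pkd1-/- and 5571 ± 323 in Pkd2-/- libraries and was not called in either mutant (adjusted p = 0.131 and 0.927, limma with Benjamini-Hochberg adjustment). Of the 3 regulatory light chains summed per kilobase of exon, *Myl12a* made up 61.9%, 56.6% and 58.5% in WT, Pkd1-/- and Pkd2-/- libraries, *Myl12b* 36.4%, 42.3% and 41.4%, and *Myl9* 1.67%, 1.12% and 0.14%. The sum itself was 5491 ± 340, 5252 ± 270 and 4857 ± 237 (mean ± SD, n = 4). GENCODE places a second gene named *Myl12b* over 13.8% of the exon bases of *Myl12a* and 26.7% of those of *Myl12b*. That second gene is not among the genes counted, so it holds no reads here. The split between *Myl12a* and *Myl12b* is uncertain because of their alike sequences, given above.

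Of the nonmuscle myosin II heavy chains, *Myh10* and *Myh14* were lower in Pkd2-/- cells and *Myh9* was not. *Myh9* (ENSMUSG00000022443, chr15:77760587-77842175, minus strand), which encodes the IIA form, was at 18368, 18764, 20124 and 18305 in WT and 16626, 19947, 18869 and 20130 in Pkd1-/- libraries. Those groups overlapped, with a log2 fold change of -0.00 (SE 0.06). In Pkd2-/- libraries it was at 22657, 22411, 21534 and 25298, above all other libraries (log2 fold change 0.28, SE 0.06, against WT). After the correction for transcript length that value was 0.11 and the gene was no longer called.

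*Myh10* (ENSMUSG00000020900, chr11:68691559-68816632, plus strand), which encodes the IIB form, was at 13288, 11476, 11702 and 11413 in WT. Pkd1-/- libraries were at 9463, 11554, 10806 and 11943, overlapping WT, with a log2 fold change of -0.13 (SE 0.08). Pkd2-/- libraries were at 6336, 6314, 5681 and 7313, below all others, at 53.6% of the WT mean (log2 fold change -0.90, SE 0.08). *Myh14* (ENSMUSG00000030739, chr7:44605803-44670843, minus strand), which encodes the IIC form, was at 2567, 2739, 2590 and 2522 in WT and 2571, 2748, 2843 and 2870 in Pkd1-/- libraries, which overlapped. It was at 1459, 1545, 1426 and 1660 in Pkd2-/- libraries, again below all others and at 58.5% of the WT mean (log2 fold change -0.78, SE 0.05).

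The heavy chain mix differed in Pkd2-/- cells. Per kilobase of exon, *Myh9* made up 49.3 ± 1.94% of the 3 heavy chains in WT, 50.6 ± 0.28% in Pkd1-/- and 68.4 ± 0.64% in Pkd2-/- libraries (mean ± SD, n = 4). *Myh10* made up 38.6 ± 2.16%, 36.2 ± 0.62% and 23.5 ± 0.69%, and *Myh14* 12.1 ± 0.57%, 13.2 ± 0.66% and 8.06 ± 0.23%. The ratio of *Myh9* to *Myh10* per kilobase was 1.28 ± 0.12 in WT, 1.40 ± 0.03 in Pkd1-/- and 2.91 ± 0.11 in Pkd2-/- libraries, with its lowest Pkd2-/- value of 2.80 above the highest of 1.42 elsewhere. Summed per kilobase, the 3 heavy chains were at 2964 ± 90.6, 2887 ± 244 and 2600 ± 203, and WT and Pkd2-/- libraries overlapped in that sum. With the longest transcript of each gene as its length instead of all exon bases, *Myh9* made up 56.8%, 58.2% and 74.5%.

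**Figure D3:**
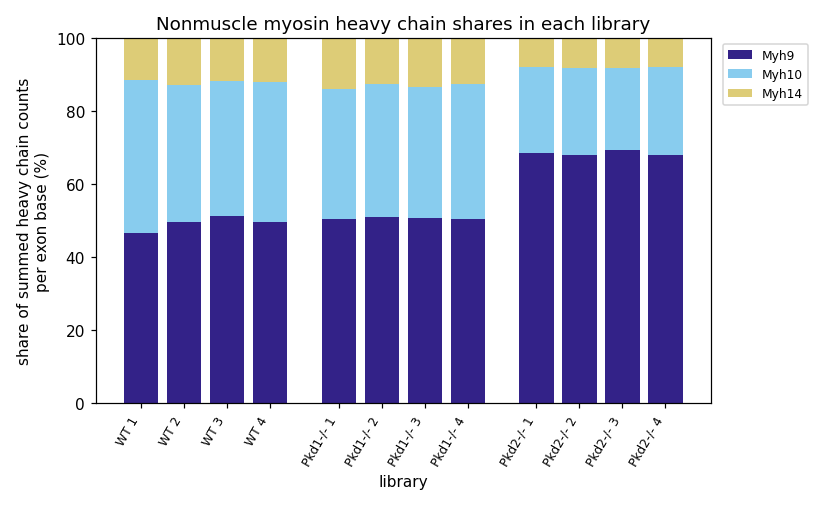
Share (percent, vertical axis) of Myh9, Myh10 and Myh14 in their summed counts per exon base, as stacked bars for each of the 12 libraries. Myh9 takes 46.7% to 51.3% in WT, 50.3% to 51.0% in Pkd1-/- and 67.8% to 69.3% in Pkd2-/- libraries.

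*Acta2* and *Tagln* encode smooth muscle actin and transgelin, an actin-binding protein, and are classical targets of serum response factor. *Acta2* (ENSMUSG00000035783, chr19:34241090-34255590, minus strand) was at 143, 109, 115 and 111 in WT and 76, 127, 67 and 60 in Pkd1-/- libraries. Replicate 2 of the Pkd1-/- cells overlapped WT and the other 3 did not. In Pkd2-/- libraries it was at 19, 20, 22 and 23, below all others. The means were 69.0% and 17.6% of WT, with log2 fold changes of -0.58 (SE 0.20) and -2.45 (SE 0.20). Without Pkd1-/- replicate 2 the Pkd1-/- value was -0.81, and without any 1 of the WT libraries or Pkd1-/- replicate 1, 3 or 4 the gene was no longer called there, at -0.62 to -0.45, nor was it with no filter on low values (-0.58).

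*Tagln* (ENSMUSG00000032085, chr9:45929619-45936058, minus strand) was at 88, 112, 114 and 121 in WT, and at 116, 147, 136 and 126 in Pkd1-/- libraries, which overlapped. Pkd2-/- libraries were at 22, 33, 43 and 37, below all others, at 31.0% of the WT mean. Its log2 fold change against WT was 0.27 (SE 0.18) for Pkd1-/- and -1.69 (SE 0.18) for Pkd2-/- cells, and -1.96 (SE 0.18) between the mutants. The gene shares 108 exon bases with *Pcsk7* on the opposite strand, at a mean of 757, and 62.4% of its exon bases with the antisense gene *Gm48529*. Whether counting used the strand is not given in the sources used here, so reads of antisense partners cannot be told apart. Pkd1-/- replicate 2 had the highest value of its genotype for *Acta2*, *Tagln* and *Myl9* alike, and Pkd2-/- libraries had the lowest values of all 3.

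Other smooth muscle markers were nearly absent. Of 7 such markers, *Myocd*, which encodes the smooth muscle coactivator myocardin, was at 0 in every library, and *Myh11*, the smooth muscle myosin heavy chain, did not exceed 8. Without *Smtn*, which was at 2934 to 5028, the others summed to 7 to 18 in WT, 10 to 22 in Pkd1-/- and 5 to 14 in Pkd2-/- libraries. Of 7 fibroblast and pericyte markers, *Col3a1* was at 62 to 69 in Pkd1-/- libraries against 3 to 7 in WT, and the 7 summed to 32 to 58 in WT, 89 to 103 in Pkd1-/- and 15 to 141 in Pkd2-/- libraries. The part of these levels in the differences of *Acta2*, *Tagln* and *Myl9* was not tested. In bulk RNA, fewer cells expressing a gene and less RNA of it per cell cannot be told apart.

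In WT cells the order of levels per kilobase of exon was *Myl12a* (3394), *Myh9* (1461), *Myh10* (1145), *Myh14* (358), *Rock2* (274), *Rock1* (106), *Myl9* (91.0), *Mylk* (87.1), *Tagln* (54.7) and *Acta2* (54.4). *Rock1* and *Myl9*, *Myl9* and *Mylk*, and *Tagln* and *Acta2* overlapped between libraries, and the other neighbors did not. In Pkd1-/- cells *Mylk* came last, at 14.9, below *Acta2* at 37.6 without overlap. In Pkd2-/- cells *Myl9* (7.10) and *Acta2* (9.56) came last and overlapped, with *Mylk* at 32.5. *Rock2* stood above *Myh14* there, at 423 against 209 without overlap. With the longest transcript as length, the mean of *Rock2* stood above that of *Myh14* in all 3 genotypes, but their WT libraries overlapped.

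Within each genotype, the libraries differed along transcript length, and several members moved with it. The median deviation of genes with transcripts of 4983 bases or more, minus that of genes with 1534 bases or fewer, ran from -0.17 in Pkd2-/- replicate 3 to 0.24 in Pkd2-/- replicate 4 on the log2 scale (2734 genes in the longer group). *Mylk*, *Myh9*, *Myh10*, *Myh14*, *Rock1* and *Rock2*, the members with long transcripts, all had their highest Pkd2-/- value in replicate 4 and their lowest in replicate 3. In Pkd1-/- cells they were all highest in replicate 4. The WT libraries did not share this pattern for all 6. In WT replicate 4, where the measure was highest for WT (0.14), *Mylk* and *Rock1* were highest, but *Myh9*, *Myh10* and *Myh14* were lowest. *Rock2* was highest in WT replicate 1. Across the 12 libraries, Pearson's r of this measure with the deviation from the genotype mean was 0.91 for *Mylk*, 0.86 for *Rock2*, 0.84 for *Rock1*, 0.78 for *Myh10*, 0.65 for *Myh9* and 0.56 for *Myh14*. It was -0.92 for *Myl12a*, -0.57 for *Myl9* and 0.18 for both *Acta2* and *Tagln*. These are descriptions over libraries that share their preparation and their counting.

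**Figure D4:**
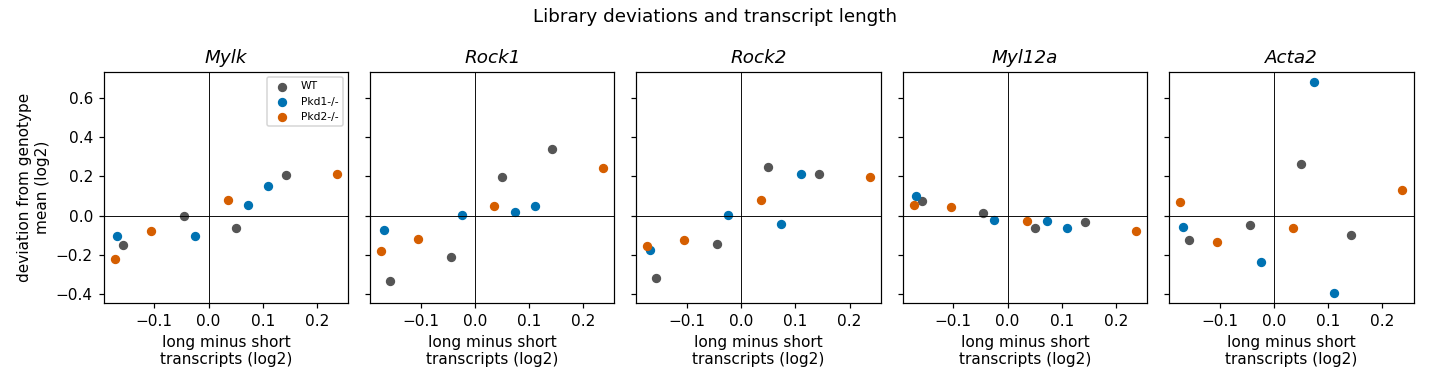
Deviation of 5 genes from their genotype mean (log2, vertical axis) against the median difference between long and short transcripts in the same library (log2, horizontal axis), 1 point per library. Mylk, Rock1 and Rock2 climb from lower left to upper right, Myl12a declines, and Acta2 shows no such line (r = 0.18).

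A correction that removed the trend over transcript length from every library was also tried after the data were seen. The trend was taken against the mean of all 12 libraries. The correction thus also removed length trends between genotypes, which the deviations above do not hold and whose cause was not tested. It took *Rock1* from 0.33 to 0.20 and *Myh9* from 0.28 to 0.11 in Pkd2-/- cells against WT, and neither was called any more. It took *Mylk* from -1.42 to -1.61, *Myh10* from -0.90 to -1.09 and *Myh14* from -0.78 to -0.90. *Rock2* was at 0.46 with the correction and still called.

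The members were also set beside their neighbors on the chromosome. Within 5 Mb of *Mylk*, the median over 82 other genes with a mean of at least 10 was 0.04 (log2) for Pkd1-/- and 0.11 for Pkd2-/- cells, against -2.54 and -1.42 for *Mylk* itself. Around *Myl9*, 108 genes had a median of 0.33 in Pkd2-/- cells, equal to that of all chromosome 2 genes (0.33), while *Myl9* was at -3.85. Around *Acta2*, 54 genes had a median of 0.41 there, and chromosome 19 as a whole 0.28, while *Acta2* was at -2.45. For *Tagln* the 69 neighbors had a median of -0.07, and around the remaining 6 members the medians lay between -0.07 and 0.00 in Pkd2-/- cells.

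The genes whose levels most resembled *Mylk* over the 12 libraries, by Pearson's r on the log2 scale among 13703 genes with a mean of at least 10, were *Tlr1* (0.994), *Wdr1* (0.991), *Plcb1* (0.988), *Miga1* (0.988) and *Efnb2* (0.987). *Plcb1* encodes a phospholipase C that releases calcium from stores, and it was at 423 ± 44.5 in WT, 1.00 ± 0.82 in Pkd1-/- and 14.0 ± 5.35 in Pkd2-/- libraries. *Wdr1*, which helps to take actin filaments apart, was at 10520 ± 83.0, 7920 ± 115 and 8949 ± 165. *Tlr1* was at 162 ± 21.4, 4.50 ± 0.58 and 20.8 ± 3.69, *Miga1* at 1475 ± 90.7, 286 ± 20.4 and 694 ± 50.7, and *Efnb2*, an ephrin, at 1266 ± 95.7, 216 ± 27.2 and 400 ± 66.5. All 5 had the order of *Mylk*, with WT highest and Pkd1-/- lowest, which follows from choosing them by their r with *Mylk*.

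For the other members the gene most like each was *Macrod2* for *Myl9* (0.989), *Ost4* for *Myl12a* (0.982), *Syne2* for *Myh9* (0.977), *A830018L16Rik* for *Myh10* (0.984), *Col8a2* for *Myh14* (0.992), *Luc7l2* for *Rock1* (0.966), *Kif5b* for *Rock2* (0.986), *Tmie* for *Acta2* (0.984) and *Tmem44* for *Tagln* (0.984). Among the members, *Myh14* was most alike *Tagln* (0.959) and *Myh10* (0.955), and *Myh10* was alike *Acta2* (0.944). *Mylk* stood apart from them, at 0.186 with *Myl9* and 0.285 with *Acta2*. *Rock2* ran with *Rock1* (0.887) and against *Myl12a* (-0.941). With 3 genotypes behind the 12 libraries these values mostly restate the order of the genotype means.

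Around the members, 60 genes of the same pathway in 7 lists were examined, of which 55 were tested. The 5 lists described here hold 39 of the tested genes. Testing was by limma with Benjamini-Hochberg adjustment over all 18552 genes. In Pkd1-/- cells 13 rose and 12 fell against WT, in Pkd2-/- cells 15 rose and 20 fell, and between the mutants 18 were higher and 22 lower in Pkd2-/- cells. Those are 25, 35 and 40 of 55, beside 27.1%, 42.3% and 46.3% of all genes. Their median log2 fold changes were 0.01, -0.03 and -0.08. The 7 lists were also chosen with earlier results of these data known, so nothing is read from these counts. The adjusted p-values of their genes below carry the same limit. Past 2-fold, 2 of the 55 were called in Pkd1-/- and 4 in Pkd2-/- cells, beside 6.24% and 9.62% of all genes. Of these, 1 in Pkd1-/- cells (*Ppp1r14c*) and 2 in Pkd2-/- cells (*Dapk2* and *Stk17b*) had a mean of at least 10. Beside the counts of single lists below, 13.6% of all genes were higher and 13.5% lower in Pkd1-/- cells. In Pkd2-/- cells 20% were higher and 22.3% lower.

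**Figure D5:**
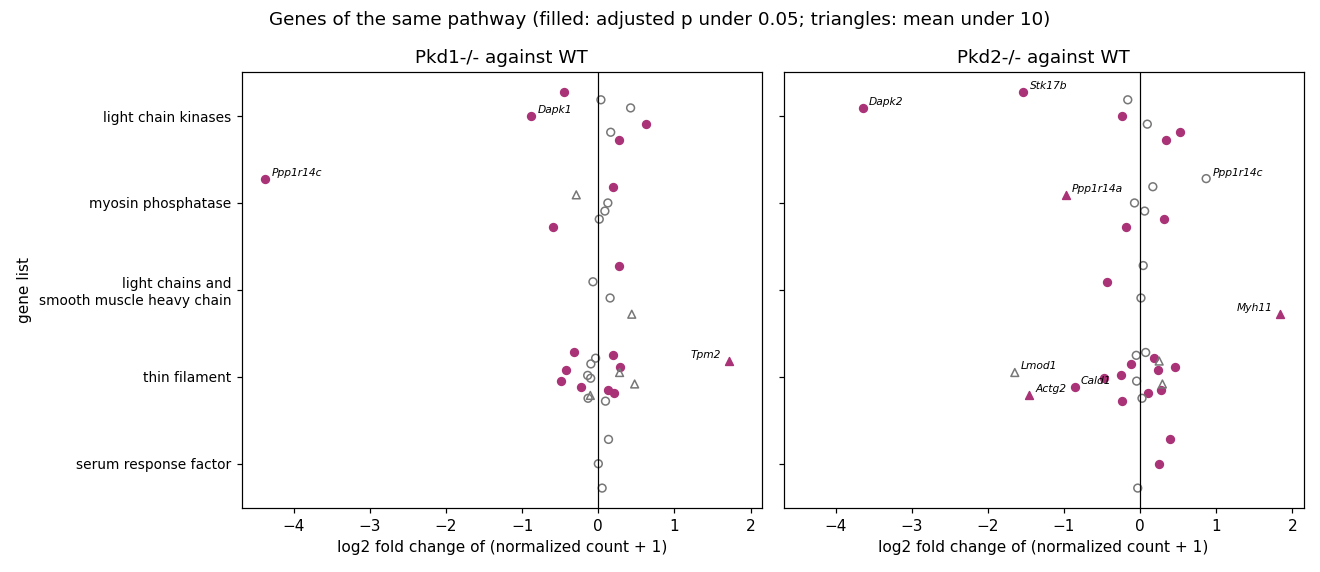
Log2 fold change (horizontal axis) of 39 tested pathway genes in 5 lists (vertical axis), in Pkd1-/- cells (left) and Pkd2-/- cells (right) against WT. Filled symbols passed an adjusted p of 0.05, and triangles have a mean under 10. Most genes lie within 1 of 0, with Ppp1r14c at -4.37 on the left and Dapk2 at -3.64 and Stk17b at -1.53 on the right.

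Of the other kinases that can phosphorylate the light chain, the muscle forms *Mylk2*, *Mylk3* and *Mylk4* did not exceed 4 counts and were not tested. Of the 7 tested, 2 rose and 2 fell in Pkd1-/- cells, and 2 rose and 3 fell in Pkd2-/- cells. The death-associated kinase *Dapk1* fell in both, with log2 fold changes of -0.88 in Pkd1-/- (SE 0.06, adjusted p = 1.23e-09) and -0.24 in Pkd2-/- cells (SE 0.06, adjusted p = 0.00282). Its relative *Dapk2* was at 155 ± 12.7 in WT and 12.8 ± 6.55 in Pkd2-/- libraries (log2 fold change -3.64, SE 0.26, adjusted p = 1.51e-09), and at 208 ± 12.8 in Pkd1-/- libraries (adjusted p = 0.263). *Stk17b*, of the same kinase family, fell in both, with log2 fold changes of -0.46 and -1.53 (adjusted p = 3.91e-05 and 1.57e-12). Citron kinase, *Cit*, rose by 0.62 in Pkd1-/- cells (adjusted p = 3.05e-06), and the Cdc42-binding kinase *Cdc42bpb* rose by 0.53 in Pkd2-/- cells (adjusted p = 4.97e-06).

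Myosin phosphatase takes the phosphate off the light chain. Its catalytic subunit *Ppp1cb* was at 21350 ± 2037 in WT, and fell by 0.60 on the log2 scale in Pkd1-/- (adjusted p = 3.64e-07) and fell by 0.18 in Pkd2-/- cells (adjusted p = 0.0208). The targeting subunit *Ppp1r12a*, which ROCK1 and ROCK2 phosphorylate, rose by 0.32 in Pkd2-/- cells (adjusted p = 0.00682) and was not called in Pkd1-/- cells (log2 fold change 0.01). The phosphatase inhibitor *Ppp1r14c* was at 48.5 ± 5.45 in WT, at 0 to 3 in Pkd1-/- libraries and at 89.5 ± 11.9 in Pkd2-/- libraries. Pkd1-/- cells were called lower than WT and Pkd2-/- cells (adjusted p = 1.76e-08 and 4.71e-10). Set against the highest Pkd1-/- library, at 3 counts, the WT mean was 16.2-fold and the Pkd2-/- mean 29.8-fold higher. At 0 to 3 counts the size of the fold is poorly known. *Ppp1r14b*, another inhibitor, rose by 0.20 in Pkd1-/- cells (adjusted p = 0.0353), and *Ppp1r14a* fell in Pkd2-/- cells from 10.8 to 5.25 counts (adjusted p = 0.041). In all, 1 of the 7 rose and 2 fell in each mutant. The *Ppp1cb* call in Pkd2-/- cells was lost without WT replicate 1 or 4 or Pkd2-/- replicate 1 (-0.16 to -0.13) and with only the 2 genotypes in the model (-0.18), that of *Ppp1r14b* without WT replicate 1, 3 or 4 or Pkd1-/- replicate 1 or 3, and that of *Ppp1r14a* without WT replicate 1, 2 or 3 or Pkd2-/- replicate 1 or 2, with no filter (-0.98), with only the 2 genotypes in the model (-0.98) and with the length correction (-0.92).

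Of the remaining light chains and the smooth muscle heavy chain, the essential light chain *Myl6* fell by 0.44 in Pkd2-/- cells (SE 0.06, adjusted p = 4.98e-06) and was at -0.07 in Pkd1-/- cells. *Myl6b* rose by 0.27 in Pkd1-/- cells (adjusted p = 0.0319). *Myh11* was called higher in Pkd2-/- cells at 2 to 8 counts, against 0 to 3 in WT (adjusted p = 0.037), a level too low to set beside the nonmuscle heavy chains. That call was lost without WT replicate 1 or 3 or Pkd2-/- replicate 1, 2 or 4, and the call of *Myl6b* without WT replicate 1 or 4 or Pkd1-/- replicate 1, 2 or 3.

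Of 18 tested genes of the thin filament, 5 rose and 4 fell in Pkd1-/- cells and 5 rose and 6 fell in Pkd2-/- cells. *Cald1*, which encodes the actin-binding regulator caldesmon, fell in both, with log2 fold changes of -0.22 and -0.86 (adjusted p = 0.00271 and 1.15e-10). *Tagln2*, *Actn1* and *Actn4* rose in both, *Tagln2* by 0.28 and 0.46 (adjusted p = 8.14e-05 and 8.79e-08). The *Actn1* call in Pkd2-/- cells and the *Actn4* call in Pkd1-/- cells were lost in some fits that left out 1 library. The calponins parted: *Cnn2* fell by 0.49 in Pkd1-/- cells (adjusted p = 6.04e-08) and was at -0.05 in Pkd2-/- cells, whereas *Cnn3* fell by 0.48 in Pkd2-/- cells (adjusted p = 4.71e-08) and was at -0.10 in Pkd1-/- cells. Between the mutants *Cnn2* was higher (0.44) and *Cnn3* lower (-0.38) in Pkd2-/- cells, with adjusted p = 8.28e-08 and 8.20e-07. *Smtn*, smoothelin, fell by 0.42 in Pkd1-/- (adjusted p = 1.09e-05) and rose by 0.24 in Pkd2-/- cells (adjusted p = 0.00189). *Tpm2*, *Actg2* and *Lmod1* were also called in at least 1 comparison, but at 0 to 12 counts in any library, and each of these calls was lost in at least 1 of the fits that left out 1 library.

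Of the serum response factor group, *Srf* was at 2062 ± 206 in WT and rose by 0.39 in Pkd2-/- cells (SE 0.08, adjusted p = 0.000526). Its coactivator *Mrtfb* rose by 0.24 there (adjusted p = 0.0176), and *Mrtfa* was not called. In Pkd1-/- cells none of the 3 tested was called, with *Srf* at 0.13 (adjusted p = 0.24). The call of *Mrtfb* was lost with the correction for transcript length (0.04) and without WT replicate 2 (0.18) or 3 (0.23) or Pkd2-/- replicate 4 (0.18), and with libraries scaled to their totals (0.18).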

How the data were processed

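RNA of mIMCD3 cells was measured in 12 libraries, 4 per genotype. The authors trimmed reads with Trim Galore, aligned them to mm10 with HISAT2, counted them per gene with HTSeq and divided them by DESeq2 size factors. The deposited values are these normalized counts, rounded to whole numbers and treated here as a score, since they are no longer read counts. Sample groups came from the GEO labels.

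The 10 genes, the 7 pathway lists and the marker lists were chosen with earlier results of these data known. Named beside the 10 genes were *Myl12b*, *Ppp1r12a*, *Ppp1cb*, *Myl6*, *Myh11* and *Srf*, for each list and comparison up to 3 called genes with the largest log2 fold change, the 5 genes most correlated with *Mylk* and the 1 most correlated with each other member. Results of 2 of the lists are not reported here. Further genes were named after their values were seen.

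Differences were fitted with limma 3.58.1 in R 4.3.3 (lmFit, eBayes with a variance trend) on log2(value + 1), for the 18552 genes whose mean reached 1, without a block. The script was tested on simulated data. Tests were two-sided. P-values measure the spread between dishes of the WT line or of 1 mutant clone, and precision of low values is limited by counting error. Gene models came from GENCODE M21 (419 identifiers were not found) and promoters from RefSeq. Alternatives were pseudocounts of 0.5 and 5, no filter or a minimum mean of 10, upper quartile or total scaling, the replicate block, only 2 genotypes, leaving out each library and, added later, a length correction. Python 3.11.15 with pandas 2.3.3, numpy 2.4.6, matplotlib 3.10.9 and biopython 1.88 did the rest.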

Additional observations from a re-analysis of the deposited data

Results flagged for a closer look

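*Myh10* in WT cells held 1 library that stood apart: replicate 1 was at 13288, and the other 3 were at 11413 to 11702. Its gap to the nearest library, divided by the range of the group, was above Dixon's 95% critical value for 4 libraries. Of 30 groups examined (10 genes in 3 genotypes) this was the 1 flagged, and chance flags about 1 in 20.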

How the results depend on the processing

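The members called in Pkd1-/- cells against WT, 4 in the model reported, were 2 with no filter on low values, and 2 to 5 when 1 library was left out: 2 without WT replicate 2 or 3 or Pkd1-/- replicate 3 or 4, and 5 without Pkd2-/- replicate 4. The other counts of calls stayed within 1.5 times of those reported under all 21 settings: 8 to 10 members in Pkd2-/- cells against WT, 6 to 9 between the mutants, and 19 to 31, 27 to 38 and 31 to 43 pathway genes in the 3 comparisons. Of 630 recomputed log2 fold changes of members, 620 moved by less than the spread between libraries, 10 by more, and 0 reversed a called direction. Scaling to the total gave 2969 genes higher and 4991 lower in Pkd2-/- cells against WT, where the deposited scaling gave 3719 and 4133, and 3386 and 5364 between the mutants, against 4072 and 4516. The cause of these changes was not tested.

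Replicate numbers paired the libraries weakly at most. Deviations of same-numbered libraries correlated at -0.07 to 0.20 and those of different numbers at -0.20 to 0.11. In 9 of 24 checks, each among 4 numbers, a library was closest to its own number. Replicates 4 correlated at 0.20 (WT and Pkd2-/-), 0.17 (Pkd1-/- and Pkd2-/-) and 0.09 (WT and Pkd1-/-). In each genotype replicate 4 had the highest difference between long and short transcripts, and what these libraries share was not tested. With the replicate block, 4, 10 and 9 members and 29, 35 and 42 pathway genes were called in the 3 comparisons, with *Rock1* gained between the mutants and *Ppp1r14a* and *Actn1* lost in Pkd2-/- cells against WT. With 4 dishes each of the WT line and of 1 clone per mutant, variation between clones is not covered.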
